A study of Populus x canadensis with 4 samples.

Results

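Leaf microRNAs of the hybrid poplar Populus × euramericana 'Neva' held for 3 days in 4 mM para-hydroxybenzoic acid (pHBA) were compared with those of untreated plants at 0 mM. The plants had been raised from cuttings in water culture, were moved to half-strength Hoagland's solution once rooted, and were treated at 90 days. Both groups are the same clone under the same culture and differ, by the labels, only in the pHBA dose. The RNA of plants of one treatment was mixed in equal parts before sequencing, so 1 library stands for each dose and the number of plants behind it is not given. The 2 libraries compared are among 4. Those at 2 and 8 mM are used here to place the 4 mM level. They also enter the means over the 4 libraries, such as that of the filter, and the median-of-ratios scaling. Of the 529 distinct sequences in the table, 350 reached a 4-library mean of 10 normalized read counts and were kept, from 84 of 120 numbered families and 27 of 44 predicted candidates. No difference below has a replicate check and no p-value can be given.

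The untreated library held 2640653 assigned reads and the 4 mM library 6369127, with 4998878 and 5310499 in those at 2 and 8 mM. Assigned reads are the sum over the listed sequences, and shares of a library's reads are shares of these, not of all small RNA sequenced. Each level below is a normalized read count from the authors' table, and 4 levels in a row are those at 0, 2, 4 and 8 mM, in that order. Folds are plain ratios of them with exact 95% intervals from the counts, and log2 ratios were taken after adding 1. The intervals cover counting error only, and not the spread between plants. PCR copies of a molecule cannot be recognised without molecular identifiers, so the intervals may be too narrow even for counting error. A listed 0 was read as at most 3 counts, which is 4.07 normalized at 0 mM and 2.50 at 4 mM, and a fold against it is written as "at least". Setting the table totals equal in place of the authors' scaling shifts log2 ratios at 4 mM by -0.57, and directions that turn under it are named where they occur. Fewer cells of a type and fewer microRNA molecules per cell cannot be told apart in leaf RNA.

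pHBA is a simple phenolic acid, and phenolic acids that build up in soil are known for holding back plant growth. Plant microRNAs are cut from folded precursors, mostly at a length of about 21 nucleotides (nt), and guide an Argonaute protein to nearly complementary messenger RNAs, which are then cut or less translated. The precursor gives a duplex of a guide strand and its partner from the opposite hairpin arm, and the partner is usually degraded. Copper-linked families such as miR397, miR398 and miR408 are known to accumulate when copper is scarce and to lower copper proteins that a plant can spare.

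The sequences that the results turn on are printed 5′ to 3′ as the deposited table lists them, with T for U and the seed, bases 2 to 8, in capitals. The first set holds 1 sequence of each copper family, and these share no seed.
ptc-miR397a: tCATTGAGtgcagcgttgatg
ptc-miR398b: tGTGTTCTcaggtcgcccctg
ptc-miR408-3p: aTGCACTGcctcttccctggc
ptc-MIR1444c-p3_1ss3CT: cATATTCGgtcaacgttcgag
A pair of 24 nt sequences shows members of miR481, which stood highest at 4 mM.
ptc-MIR481c-p5_1ss23AG: cTTAAGCTtttgggttgagatggt
ptc-MIR481d-p5: tTCTTTGAcatggtatcagagcct
Opposite arms matched by hairpin name are shown next, the more abundant arm first, because the arms had unlike ratios.
ptc-miR396a: tTCCACAGctttcttgaactg
ptc-MIR396a-p3: gTTCAATAaagctgtgggaag
ptc-miR156a: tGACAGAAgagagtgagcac
ptc-MIR156a-p3: tGCTCACAtctcttctgtcagc
The last pair has 1 start and 2 lengths, and its short and long forms had opposite ratios under the authors' scaling.
gma-miR6300: gTCGTTGTagtatagtgg
gma-miR6300_R+6_1: gTCGTTGTagtatagtggtgagta

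At 4 mM, 66 of the 350 kept sequences were at least 2-fold higher than in the untreated library, which is 18.9%, and 90 were at least 2-fold lower, which is 25.7%. The counting interval excluded 1 for 62 of those higher and 89 of those lower. The remaining 194 lay between, and the median log2 ratio of all kept sequences was 0.03. With equal table totals the split was 38 higher and 123 lower, and the median turned to -0.50. Of all 529 sequences, 367 were listed with reads in both libraries, 78 only at 4 mM, 42 only at 0 mM and 42 in neither. Those listed in 1 of the 2 libraries had few reads, at most 84 at 4 mM and at most 93 at 0 mM. Just past the 2-fold line lay ptc-miR169i, at 30.9, 52.3, 63.1 and 43.7, and just short of it ptc-miR162a, with a log2 ratio of 0.98. On the lower side ptc-miR6457b, at 3557, 2914, 1728 and 1623, lay just past the line with a log2 ratio of -1.04. Just outside the filter was gma-miR403a_1ss21GT with a mean of 9.39, and just inside it ptc-MIR399b-p5 with 10.03, which had 0 reads in both libraries compared.

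**Figure D1:**
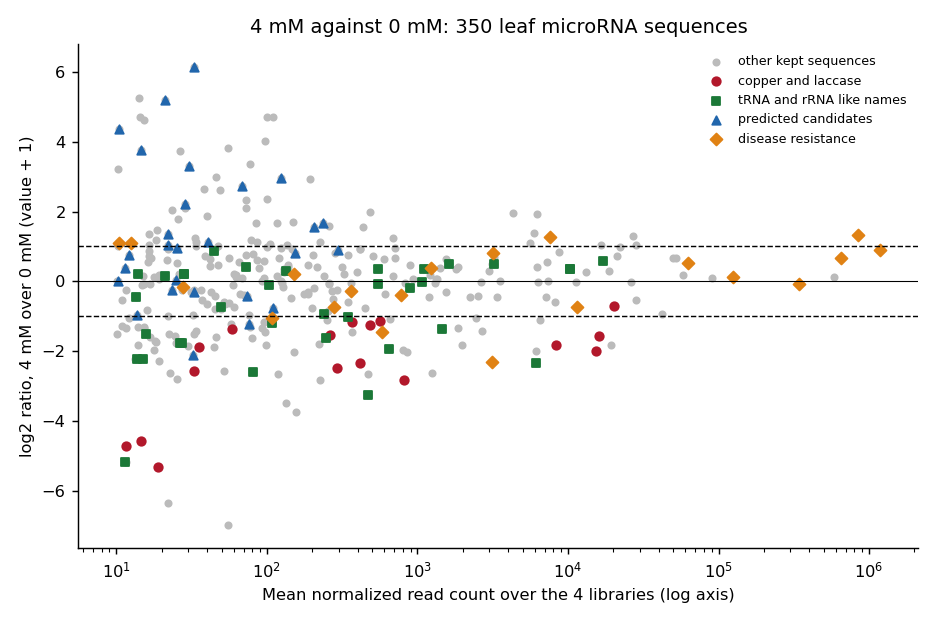
Log2 ratio of the level at 4 mM over 0 mM (y axis, after adding 1) against the mean normalized read count over the 4 libraries (x axis, log scale) for the 350 kept sequences, with dashed lines at 2-fold. Red points, the copper and laccase sequences, all lie below 0, and the predicted candidates (blue triangles) reach the highest ratio, 6.15.

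The copper families stood out by where the 4 mM level lay among the doses. All 17 of the 17 kept sequences of miR397, miR398, miR408 and miR1444 had their lowest level of the 4 libraries at 4 mM, against 75 of the 350 sequences, which is 21.4%. That count of 17 was the same under each of the 4 scalings. Their share of the assigned reads was 1.99% in the untreated library, with a Wilson 95% interval of 1.97 to 2.00, and 0.520% in the 4 mM library (0.515 to 0.526). It was 2.28% at 2 mM and 0.886% at 8 mM. By member, ptc-miR397a, from a family that targets laccases, the copper oxidases of lignin formation, stood at 1122, 1557, 157 and 441 and was 7.17-fold lower at 4 mM (6.11 to 8.45). The 2 mM level was the highest and the 4 mM level the lowest. ptc-miR398b, which targets copper/zinc superoxide dismutases, stood at 17252, 30505, 4321 and 8949 and was 3.99-fold lower (3.87 to 4.12). ptc-miR408-3p, whose targets are plantacyanins and laccases, stood at 18981, 29194, 6448 and 9728 and was 2.94-fold lower (2.86 to 3.03). These 3 sequences share the order of doses, with 8 mM between 4 mM and the untreated level.

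The members of miR1444, a poplar family known to target polyphenol oxidases, were not alike in size. ptc-miR1444a_R+1, the most abundant, stood at 21054, 32182, 12918 and 14626 and was only 1.63-fold lower (1.59 to 1.67). ptc-MIR1444c-p3_1ss3CT stood at 9686, 14496, 2757 and 6436 and was 3.51-fold lower (3.37 to 3.66). ptc-miR1444a_R+1 was the 1 copper sequence of 17 short of a 2-fold difference, while 25.7% of all kept sequences were at least 2-fold lower. With equal table totals all 17 were past 2-fold, a scaling under which more of all kept sequences were lower too. The 3 copper sequences with 0 reads at 4 mM were scarce everywhere. ptc-MIR397a-p3 stood at 39.3, 24.6, 0 and 11.6, ptc-miR397b_L-1 at 25.1, 17.3, 0 and 4.01 and ptc-MIR398c-p5 at 23.1, 30.6, 0 and 4.46, which made them at least 15.7-fold lower, at least 10.04-fold lower and at least 9.23-fold lower. The 3 sequences with the miR397 seed CATTGAG had log2 ratios from -2.83 to -1.87 and the 4 with the miR398 seed GTGTTCT had ratios from -2.00 to -1.17.

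**Figure D2:**
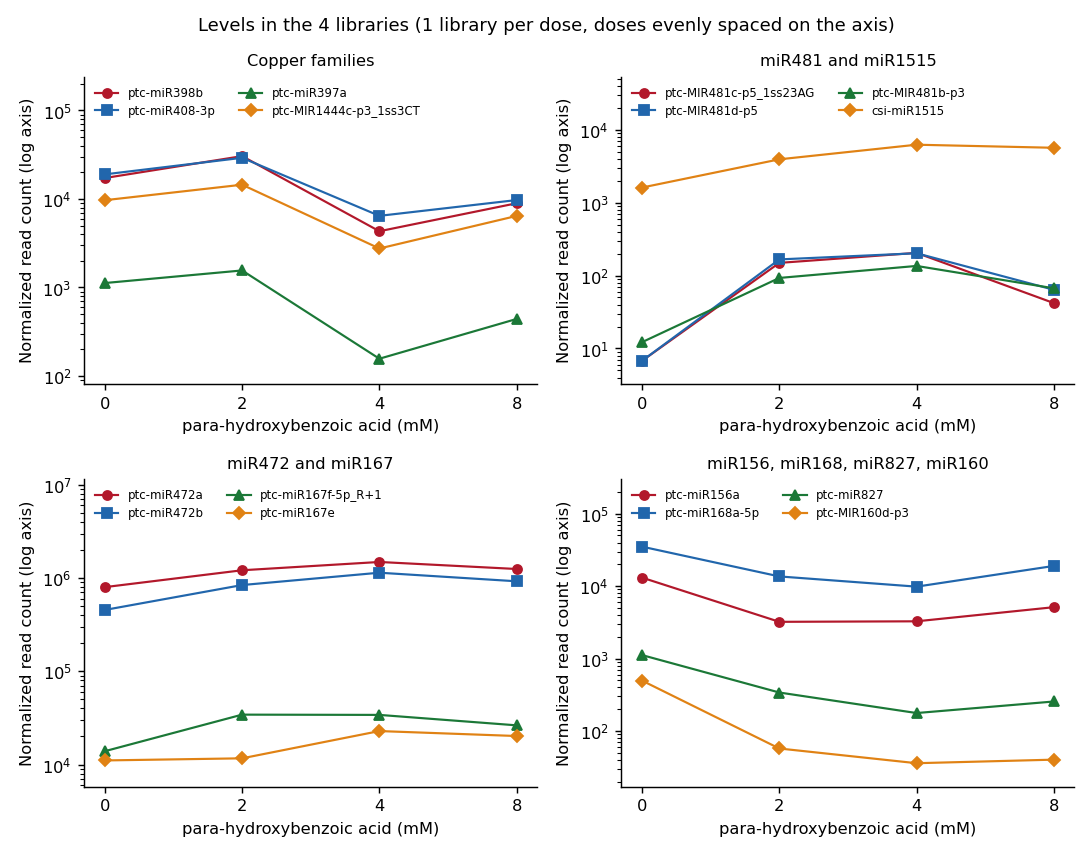
Normalized read counts (y axis, log scale) of 16 sequences in the 4 libraries against the pHBA dose in mM, with 1 point per library and doses evenly spaced on the axis. The 4 copper sequences dip at 4 mM, those of miR481 peak there, ptc-miR472a and ptc-miR472b are highest there, and ptc-miR156a, ptc-miR168a-5p, ptc-miR827 and ptc-MIR160d-p3 are highest at 0 mM.

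Of 8 kept phosphate and sulphate sequences, 4 were at least 2-fold lower and 1 at least 2-fold higher, against 25.7% and 18.9% of all kept sequences, and ptc-MIR399b-p5 among the 8 had 0 reads in both libraries. ptc-miR827, whose family targets SPX-domain proteins of phosphate transport, stood at 1115, 339, 177 and 255 and was 6.31-fold lower (5.42 to 7.38). Its untreated level was above all 3 treated levels. Among the 3 kept sequences with the miR399 seed GCCAAAG, which targets the ubiquitin conjugase PHO2, 2 were at least 2-fold lower and 1 was at least 2-fold higher. ptc-miR399e stood at 113, 58.2, 18.3 and 17.8 and was 6.14-fold lower (3.80 to 10.3), whereas ptc-miR399b stood at 9.49, 12.8, 44.1 and 48.1 and was 4.65-fold higher (2.11 to 12.1). The difference rests on 83 and 22 reads for ptc-miR399e and on 7 and 53 reads for ptc-miR399b.

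In the families of phase change, the juvenile to adult switch, log2 ratios of miR156 forms lay on both sides of 0. miR156 targets SPL transcription factors and holds the juvenile state, and miR172 acts against it through AP2 transcription factors. ptc-miR156a stood at 13095, 3211, 3264 and 5116 and was 4.01-fold lower (3.87 to 4.16). The 3 sequences with its seed GACAGAA were all at least 2-fold lower, against 25.7% of all kept sequences. The more abundant ptc-miR156g, shifted by 1 base in its seed, stood at 69626, 23017, 36339 and 39271 and was 1.92-fold lower (1.89 to 1.94). Both were highest in the untreated library. From the opposite arm, ptc-MIR156f-p3 stood at 5030.3, 11411, 9004 and 9430.1 and was 1.79-fold higher (1.72 to 1.86). The 4 kept miR172 sequences shared the seed GAATCTT, none was past 2-fold, and their total was 1.29-fold higher (1.21 to 1.37), which equal table totals turn to lower.

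Families that act on the small RNA machinery itself went in different directions. ptc-miR168a-5p, which targets AGO1, the main Argonaute of microRNAs, stood at 35066, 13605, 9830.2 and 18996 and was 3.57-fold lower (3.49 to 3.65). Of the 6 miR168 sequences 5 were at least 2-fold lower, against 25.7% of all kept sequences. ptc-miR162a, which targets the precursor-cutting enzyme DCL1, stood at 12726, 25478, 25168 and 24813 and was 1.98-fold higher (1.93 to 2.02). Its longer 24 nt form hpe-miR162a_R+3 stood at 9.49, 40.4, 63.3 and 82.9 and was 6.67-fold higher (3.08 to 17.1), from 7 and 76 reads. All 3 treated libraries lay above the untreated one for miR162a and below it for miR168a-5p. Of the 5 kept sequences of miR403, which targets AGO2, 2 were at least 2-fold higher and 1 at least 2-fold lower. The shares of all kept sequences were 18.9% and 25.7%. Its total was 1.12-fold higher (1.07 to 1.17), which equal table totals turn to lower. The one lower, ptc-MIR403b-p5, stood at 35.3, 4.93, 0 and 6.24 and was at least 14.1-fold lower.

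The most abundant sequence of the leaf and several close behind it belong to families that target NLR disease resistance genes, which code for immune receptors, and the ratio differed between close relatives. ptc-miR472a stood at 798946, 1211447, 1486719 and 1249876 and was 1.86-fold higher (1.86 to 1.87). ptc-miR472b stood at 454856, 840936, 1140347 and 922747 and was 2.51-fold higher (2.50 to 2.52), and both were highest at 4 mM. ptc-miR1448_L+1R+1 stood at 475115, 854652, 750988 and 528241 and was 1.58-fold higher (1.57 to 1.59), with its highest level at 2 mM. ptc-miR482a.1_L+5 stood at 377899, 333694, 361089 and 289761 and differed little from 0 to 4 mM, 1.05-fold lower (1.04 to 1.05). ptc-miR482b-3p, the highest ratio of the kept miR482 sequences, stood at 4405, 7110.1, 10566 and 8508 and was 2.40-fold higher (2.31 to 2.49). The order of the ratios, miR472b, miR482b-3p, miR472a, miR1448 and miR482a, does not depend on the scaling, and their counting intervals do not overlap.

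Among families that regulate auxin signalling, the 7 kept sequences with the miR167 seed GAAGCTG, which targets the auxin response factors ARF6 and ARF8, were all higher at 4 mM. Their log2 ratios ran from 0.40 to 1.29, and 4 were at least 2-fold higher, against 18.9% of all kept sequences. With equal table totals the lowest of them, ptc-miR167a_R-2, turned to lower. ptc-miR167f-5p_R+1 stood at 13903, 34284, 34066 and 26324 and was 2.45-fold higher (2.40 to 2.50). ptc-miR167e stood at 11064, 11660.1, 22857 and 20222 and was 2.07-fold higher (2.02 to 2.12). The first had nearly the same level at 2 and 4 mM, whereas the second was close to the untreated level at 2 mM and stepped up between 2 and 4 mM. miR160, which targets another set of auxin response factors, lay on the other side, with ptc-miR160a at 4006, 3923, 2947 and 2721, 1.36-fold lower (1.29 to 1.43). The total of miR390, which triggers small RNAs against auxin response factors, was 1.22-fold lower (1.03 to 1.45). Its most abundant form, ptc-miR390a, stood at 277, 404, 229 and 180.0, and ptc-MIR390a-p3 was 8.14-fold lower (3.33 to 23.9), the lowest ratio of the 4 kept. On the other side hex-MIR390b-p5_2ss8AG21GT had 0 reads at 0 mM and 30 at 4 mM and was at least 6.14-fold higher.

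Families that regulate leaf growth and form were mixed between members. miR396 targets growth-regulating factors, which keep leaf cells dividing. ptc-miR396a and ptc-miR396c differ at their 3′ end and share the seed TCCACAG. ptc-miR396a stood at 19358, 48368, 19032 and 18774 and ptc-miR396c at 14489, 40491, 29716 and 28017, and the first was 1.02-fold lower (0.996 to 1.04) while the second was 2.05-fold higher (2.01 to 2.10). The trimmed mean scaling turned the direction of ptc-miR396a. Both were highest at 2 mM. Within the same seed the highest ratio was that of the longer ama-miR396-5p_R+1_1ss19CT, at 33.2, 320.4, 259 and 165, which was 7.81-fold higher (5.27 to 12.6). The 3 kept sequences with the seed TCAAGAA, from the other arm of miR396, had log2 ratios from -0.44 to 0.42, and equal table totals turn the upper end to lower.

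ptc-miR319a, whose family targets TCP transcription factors of leaf shape, stood at 773, 1969.7, 195 and 255 and was 3.96-fold lower (3.39 to 4.62). The related ptc-miR159a, which targets MYB transcription factors, stood at 87429, 71794, 93992 and 110966 and was 1.08-fold higher (1.06 to 1.09), which equal table totals turn to lower. ptc-miR166a, whose targets are HD-ZIP III transcription factors of leaf polarity, stood at 487394, 632928, 536308 and 692479.9 and was 1.10-fold higher (1.10 to 1.10), which turned in the same way. ptc-MIR319d-p5, the lowest ratio of all, stood at 126, 59.2, 0 and 33.9 and was at least 50.5-fold lower. ptc-miR164a, which targets NAC transcription factors, stood at 31922, 38087, 22237 and 20752 and was 1.44-fold lower (1.41 to 1.46). ptc-miR169ac_R+2_1ss13AG, whose family targets NF-YA subunits of a CCAAT-binding factor, stood at 3221, 6093, 8345 and 6100.4 and was 2.59-fold higher (2.48 to 2.71), while ptc-miR169u-5p_1ss16TA of the same seed, AGCCAAG, stood at 3491, 3174, 3533 and 3917, a ratio of 1.01 (0.963 to 1.06), which equal table totals turn.

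Families outside those above held several of the highest ratios. Of 12 miR481 sequences 6 passed the filter, and the whole family had 83 reads at 0 mM and 1160 at 4 mM. All 6 kept were at least 2-fold higher, against 18.9% of all kept sequences. The 5 of 24 nt had their highest level at 4 mM, against 25.4% of all kept sequences. Members scarce at 0 mM can pass the filter through their treated levels, and the effect on both counts was not tested. ptc-MIR481c-p3_2ss19CT21TC of 21 nt stood at 62.4, 223, 206 and 104, highest at 2 mM. ptc-MIR481c-p5_1ss23AG stood at 6.78, 149, 204 and 41.9 and was 30.2-fold higher (12.8 to 93.9). ptc-MIR481d-p5 stood at 6.78, 166, 202 and 63.7 and was 29.8-fold higher (12.6 to 92.4). Their untreated level was 5 reads each, which sets the width of the intervals, and the level at 8 mM was below those at 2 and 4 mM. csi-miR1515 stood at 1607, 3916, 6211 and 5637, 3.86-fold higher (3.63 to 4.11), and ptc-miR530b_R+1 at 169.5, 606, 503 and 472, 2.97-fold higher (2.44 to 3.63). On the lower side gma-miR1511_R-2 stood at 385, 62.1, 33.3 and 52.6, 11.6-fold lower (8.28 to 16.5), and ptc-miR3627b at 397, 392, 54.97 and 56.2, 7.23-fold lower (5.52 to 9.59). ptc-miR3627b was level between 0 and 2 mM and again between 4 and 8 mM, so its step lay between 2 and 4 mM.

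The authors' predicted candidates, listed under names that start with PC, were more often 2-fold higher than 2-fold lower. Of 27 kept, 13 were at least 2-fold higher and 2 at least 2-fold lower, against 18.9% and 25.7% of all kept sequences. Their median log2 ratio was 0.95, against -0.01 for the other kept sequences. The filter mean covers all 4 libraries, so a candidate scarce at 0 mM can be kept through its levels at 2, 4 and 8 mM. How far this shapes the counts was not tested. PC-5p-44713_134, with the highest ratio of all, stood at 0, 7.89, 69.96 and 52.6 and was at least 17.2-fold higher. PC-3p-70722_70 stood at 0, 28.6, 35.8 and 19.6 and was at least 8.80-fold higher. All candidates together held 952 reads at 0 mM and 3015 at 4 mM, which is 0.0361% and 0.0473% of the assigned reads.

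The ratios differed between length classes. Of 26 kept sequences of 24 nt, 17 were at least 2-fold higher and 0 at least 2-fold lower, with a median log2 ratio of 1.95. Over all kept sequences 18.9% were higher and 25.7% lower, and these shares are the background for each length. The highest level at 4 mM was found for 18 of the 26, against 25.4% of all kept sequences. The filter mean includes the 4 mM level, so a scarce sequence can be kept because it was high there. This can raise the counts of 17 and 18, and by how much was not tested. Of 10 kept sequences of 18 nt, 9 were at least 2-fold lower, with a median of -1.83, and of 28 of 20 nt, 14 were lower and 0 higher, with a median of -0.96. The classes between were milder, with 23 higher and 40 lower of 168 at 21 nt, 14 and 16 of 66 at 22 nt, and 8 and 2 of 24 at 23 nt. The medians went from -0.11 at 21 nt to 0.27 at 22 nt and 0.54 at 23 nt, and equal table totals turn those of 22 and 23 nt to lower. With equal table totals 15 sequences of 24 nt were still at least 2-fold higher.

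Of the 26 sequences of 24 nt, 13 belonged to miR481 or the candidates. Among the other 13, 6 were at least 2-fold higher, 0 lower and 7 highest at 4 mM, with a median of 0.96. ptc-MIR7836-p3, one of these, stood at 0, 14.8, 37.5 and 4.46 and was at least 9.21-fold higher. It reached the filter mean only through its 4 mM level, so its ratio and its place are no support for the class. A shifted form of miR166, mtr-miR166c_L+5R-2, stood at 0, 19.7, 23.7 and 17.8 and was at least 5.83-fold higher. Most of the class is scarce: with a mean of at least 100 only 3 of the 24 nt sequences past 2-fold were left. Of the assigned reads, the 24 nt class was 0.161% at 0 mM and 0.183% at 4 mM, with 0.104% and 0.109% at the doses on either side of 4 mM. Most of it was carried by 2 forms of miR6300. These shares do not depend on the authors' scaling, whereas the ratios of single sequences do. Under that scaling the total of the 24 nt class was 1.68-fold higher at 4 mM (1.62 to 1.74). The median log2 ratio of the 26 kept sequences was 1.95.

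**Figure D3:**
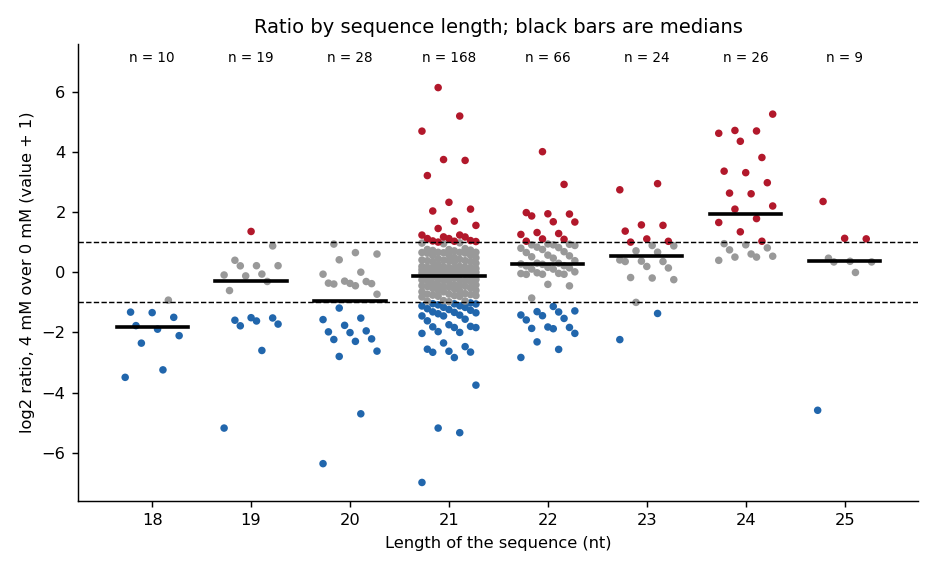
Log2 ratio of 4 mM over 0 mM (y axis, after adding 1) for each kept sequence by its length in nt (x axis), with the number of sequences above each class, black bars at the medians and dashed lines at 2-fold. The medians climb from -1.83 at 18 nt to 1.95 at 24 nt, except that 20 nt (-0.96) lies below 19 nt (-0.30), and that of 25 nt is 0.37, while equal table totals turn the medians of 22, 23 and 25 nt below 0.

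Forms that differ from a listed microRNA at their ends were set against the forms as listed. The 56 kept forms with a longer end had a median log2 ratio of 0.37, which equal table totals turn, and the 12 with a shorter end one of -0.91, against -0.12 for the 75 as listed. Within 21 nt, where 13 longer forms were kept, their median was -0.50 against -0.19 for the 53 as listed. The difference between longer and listed forms had the other sign when length was held the same.

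Opposite arms matched by hairpin name had unlike ratios. A sequence can be listed under several hairpin names, as ptc-MIR166c-p5 is, so a ratio or share of arms need not be that of a single hairpin. By name and by a predicted duplex of at least 14 paired bases, 50 pairs of kept sequences came from opposite arms. The less abundant arm, told from the mean of the 4 libraries, had the lower log2 ratio in 34 pairs and the higher in 16. The median log2 ratio was 0.12 for the more abundant arms, a direction that equal table totals turn, and -0.26 for the less abundant arms, and the median difference within pairs was -0.61. At least 2-fold lower were 19 of the less abundant arms and 6 of the more abundant ones, of 50 each, against 25.7% of all kept sequences. At least 2-fold higher were 7 and 7, against 18.9% of all kept sequences. A ratio of arms within a library does not depend on the scaling. Its counting interval lay below 0 for 22 pairs and above 0 for 12, and 2 pairs had a 0 in an arm. ptc-miR171e enters in 2 pairs, so pairs are not fully independent.

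The median share of the less abundant arm was 6.05% in the untreated library and 2.60% in the 4 mM library, with 3.02% at 2 mM and 3.55% at 8 mM, so the untreated library held the largest share. For the 26 pairs whose less abundant arm averaged at least 100 the medians were 4.94%, 1.90%, 2.60% and 3.22%, with the smallest at 2 mM. The less abundant arm was the same one for all 50 pairs when told from the 2 and 8 mM libraries alone. ptc-MIR396a-p3 stood at 3023, 748, 489.7 and 760.3 and was 6.17-fold lower (5.63 to 6.77), with a share of the reads of both arms of 13.5% at 0 mM (12.99 to 14.04) and 2.51% at 4 mM (2.32 to 2.72). ptc-MIR160d-p3, which pairs with miR160a, stood at 495, 57.2, 35.8 and 40.1 and was 13.8-fold lower (10.1 to 19.4). In both the untreated level was above the 3 treated levels.

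Under the authors' scaling the arms of 21 pairs lay on opposite sides of 0. ptc-MIR472a-p5_1ss7TC stood at 1116, 403, 408 and 400.2 and was 2.74-fold lower (2.44 to 3.07), while miR472a, its partner, was higher, and the log2 ratio of the arms was -2.35 (-2.51 to -2.19). ptc-miR167f-3p stood at 434, 127, 199 and 248 and was 2.18-fold lower (1.84 to 2.59), against a higher miR167f-5p, with an arm ratio of -2.41 (-2.66 to -2.17). For miR166a and miR159a the less abundant arms ptc-MIR166c-p5 and ptc-MIR159a-p5_1ss21AT were 2.16-fold lower (2.09 to 2.23) and 2.52-fold lower (2.36 to 2.69), with arm ratios of -1.25 (-1.30 to -1.20) and -1.44 (-1.53 to -1.34). In the pairs named here the less abundant arm was lower beside a partner that was higher or level. Other pairs of the 21 had the reverse, with the less abundant arm higher and its partner lower.

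Pairs with the opposite order were fewer. ptc-MIR156a-p3 stood at 1025, 1383, 1153 and 1286 while miR156a was lower, and its share of the arms was 7.26% at 0 mM (6.78 to 7.78) and 26.1% at 4 mM (24.9 to 27.3). ptc-MIR164a-p3 stood at 21.7, 79.9, 113 and 77.5 and was 5.22-fold higher (3.10 to 9.39). ptc-miR473a-3p stood at 613, 359.8, 1182 and 693 and was 1.93-fold higher (1.73 to 2.15), while ptc-miR473a-5p_R+1, of a family linked to GRAS transcription factors, stood at 12334, 6134, 8128 and 5978 and was 1.52-fold lower (1.47 to 1.56). In miR168a both arms were lower, the 5p arm by more. ptc-MIR475c-p5, of a family that targets pentatricopeptide repeat genes, had 1.5 estimated reads at 0 mM and 47 at 4 mM, a ratio of 19.2 (3.78 to 123).

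**Figure D4:**
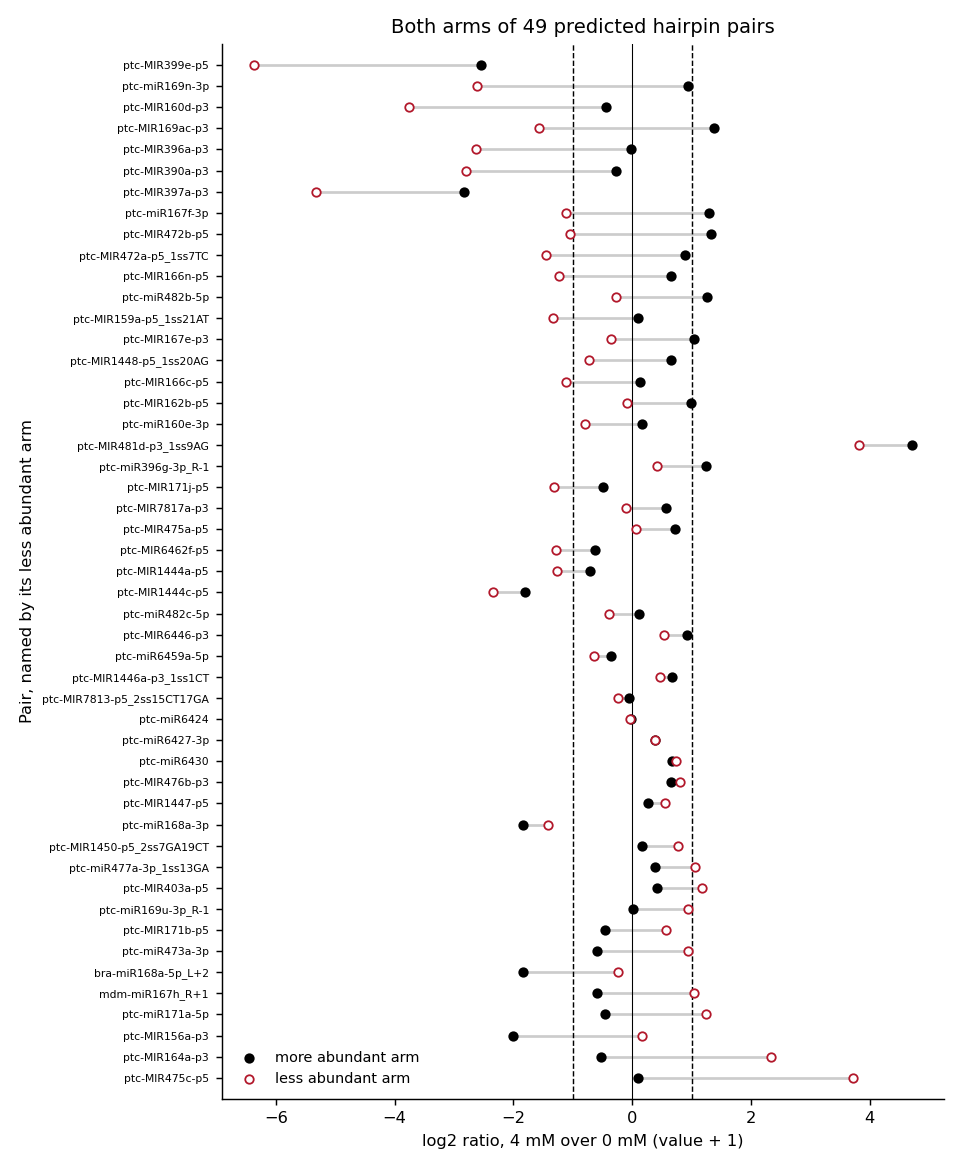
Log2 ratios of 4 mM over 0 mM (x axis, after adding 1) of the more abundant arm (filled points) and the less abundant arm (open points) of 49 of the 50 hairpin pairs, sorted by their difference and named by the less abundant arm, with dashed lines at 2-fold. The open point lies left of the filled one in 33 of the pairs drawn and right of it in 16.

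Names that resemble pieces of transfer or ribosomal RNA were measured as a sign of fragments of other RNA, and within miR6300 the ratio differed by length. The forms of gma-miR6300 that share the seed TCGTTGT were summed by length. The 18 to 21 nt forms stood at 20929, 2242, 4855 and 5359 and were 4.31-fold lower at 4 mM (4.18 to 4.44). The 22 to 25 nt forms stood at 30249.8, 14316, 39358 and 26497 and were 1.30-fold higher (1.28 to 1.32), which equal table totals turn to lower. The short forms were highest at 0 mM and the long forms at 4 mM. At 19 nt, with 108.5 at 0 mM and 127 at 4 mM, and at 22 nt, with 703 and 673, the counting interval of the ratio included 1. Of the short forms, gma-miR6300 of 18 nt alone stood at 16341, 1512, 3195 and 3558. Among the miR8175 forms, 6 of 7 kept were at least 2-fold lower, with ath-miR8175_L-2 of 18 nt at 1310.1, 281, 137 and 152, 9.53-fold lower (8.07 to 11.3). Of all 35 kept sequences with such names 14 were at least 2-fold lower and 0 higher, against 25.7% and 18.9% of all kept sequences. Their level was lowest at 4 mM for 8, near the 21.4% of all kept sequences, and highest for 13, against 25.4%. The part of such fragments in the ratios by length was not tested beyond these values.

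**Figure D5:**
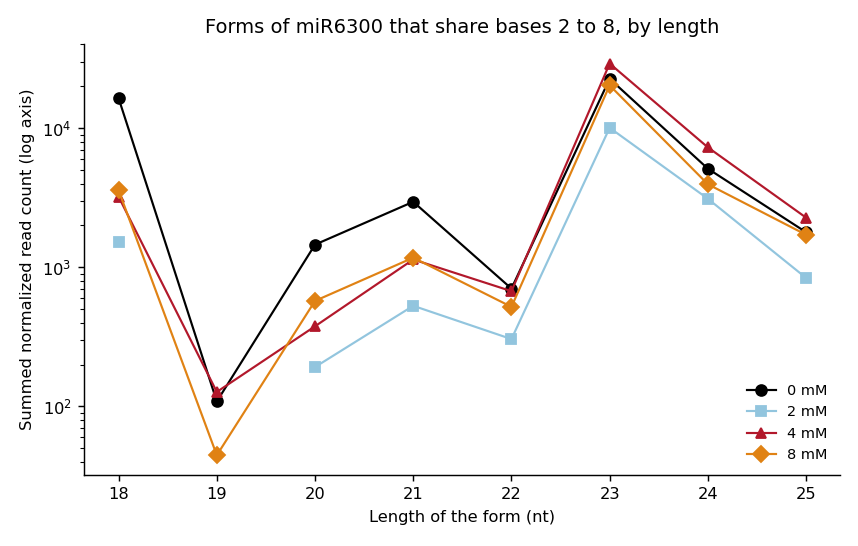
Summed normalized read counts (y axis, log scale) of the miR6300 forms that share bases 2 to 8, by length in nt (x axis), with 1 line per library. The untreated library (black) is the highest at 18, 20 and 21 nt and the 4 mM library (red) at 23 to 25 nt, and no point is drawn for 2 mM at 19 nt, where it is listed at 0.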

How the data were processed

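Per the file headers, the authors deposited a raw and a normalized value for each library. The deposited raw values are estimated counts and many are fractions. The deposited normalized values are a linear signal, found here to be the raw value multiplied by a constant of each library (1.356 for 0 mM, 0.986 for 2 mM, 0.833 for 4 mM and 0.891 for 8 mM). The submitters' processing notes name bcl2fastq 1.8.4. Which mapper, counter, genome build or annotation was used is not given in the sources used here. All 738 deposited rows were summed to 529 sequences, because of the 134 sequences listed on 2 rows 88.1% gave whole reads throughout, within 0.002, when summed and 10.4% from a single row. In 11 sequences with at least 20 reads the row values equalled those of another sequence, so their reads may be shared out by the authors' counting.

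The members, family lists and filter were chosen with earlier results of these data known. Families come from the number in a name. A suffix such as _R+1, _L-1 or _1ss19CT was read as a form with a longer or shorter end or a differing base, and p5 or p3 as a hairpin arm. Sequences with a mean of at least 10 were kept, a pseudocount of 1 was added for log2 ratios, and a difference of 2-fold was counted. Folds have exact 95% conditional binomial intervals from counts rounded to whole reads, shares have Wilson intervals, arm ratios have Wald intervals on the log scale, and 3 counts stand for a listed 0. With 1 library per dose the spread between plants is not known and no test between doses was made.

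The rule for sequences that may be named took the 10 sequences highest and lowest by ratio, the 10 most abundant, each listed family's total, its most abundant sequence and its extremes, opposite-arm pairs, seed groups of at least 3, the 5 most extreme in each direction that lay outside the other 3 doses, and those beside a threshold, of which the text gives a part. Any other named sequence was chosen after its values were seen, as were the length classes of ratios, the end classes and the minimum of 14 paired bases for arm pairs (RNAduplex of ViennaRNA 2.7.2). Alternatives were equal table totals, median-of-ratios and trimmed-mean factors, other pseudocounts, filters and folds, and 1 row per sequence. Python 3.11.15, numpy 2.4.6, pandas 2.3.3, scipy 1.17.1 and matplotlib 3.10.9 were used, and the procedure was tested on simulated data. The values of 1 sequence are not reported here.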

Additional observations from a re-analysis of the deposited data

How the results depend on the processing

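With equal table totals 38 sequences were at least 2-fold higher, 48 were highest and 113 lowest at 4 mM. Without the filter, over 487 sequences, 137 were higher, 134 were highest at 4 mM and 35 of 24 nt were higher. With a mean of at least 100, over 181 sequences, 25 were higher and 40 lower, 45 were highest and 35 lowest at 4 mM, 3 of 24 nt were higher and 7 highest, and of the copper sequences 10 were lower and 11 lowest, which follows from fewer sequences tested. At 4-fold 27 were higher and 32 lower. Leaving out miR481 and the candidates, 6 of 24 nt were higher, and with less abundant arms of at least 100 on average the arm count was 19 of 26 pairs, both chosen after seeing the data. Dropping the minimum of paired bases gave 39 of 64. The median-of-ratios and trimmed-mean factors, pseudocounts of 0.1 and 10 and the use of 1 row kept all 9 summary results within 1.5 times or within the spread. The causes of the other shifts were not tested. No paired analysis was possible because each dose has 1 library. Depth limits sequences under about 10 reads in a library, where intervals span several-fold.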

Other observations

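The untreated library lay at an end of the 4 doses more often than the 4 mM library. Of the 350 kept sequences, 124 were highest and 123 lowest at 0 mM, 83 and 94 at 2 mM, 89 and 75 at 4 mM, and 54 and 56 at 8 mM. By first base, 36 of 171 kept sequences with T were at least 2-fold higher and 33 at least 2-fold lower, which is 21.1% and 19.3%. The counts were 10 and 23 of 68 with G (14.7% and 33.8%) and 7 and 17 of 53 with C (13.2% and 32.1%). With A they were 13 and 17 of 58 (22.4% and 29.3%). For all kept sequences the shares were 18.9% and 25.7%. Reads that start with G made up 2.17% of the assigned reads at 0 mM and 1.16% at 4 mM, and reads that start with T 94.7% and 97.3%. The tRNA and rRNA like names took 1.96% of the assigned reads at 0 mM and 1.26% of those at 4 mM.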
